A study of Mus musculus with 12 samples.

Results

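Oxidative phosphorylation is the step of respiration in which mitochondria make most of their ATP. Complex I (NADH dehydrogenase) and complex II (succinate dehydrogenase) pass electrons to ubiquinone, complex III (the cytochrome bc1 complex) passes them on to cytochrome c, and complex IV (cytochrome c oxidase) hands them to oxygen. Complexes I, III and IV pump protons, and complex V (ATP synthase) makes ATP as the protons flow back. A few core subunits are encoded by mitochondrial DNA and all others by nuclear genes. Regulatory T cells (Treg), which restrain immune responses, are known to depend on mitochondrial respiration more than effector T cells do.

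The genes described here are the nuclear genes whose name begins with Nduf (series a, b, c, s and v), Sdh (a to d), Uqcr, Cox4 to Cox8 (series a to c) or Atp5, that have exons and that are listed in every library. There were 81 of them among 20965 genes joined over all libraries: 37 named for complex I, 4 for complex II, 8 for complex III, 16 for complex IV and 16 for complex V. The choice used names alone and no measured value. Some names stand for proteins of another place: Ndufa4 is now known as a complex IV subunit, Cox7a2l as a factor of respiratory supercomplexes, and Atp5s as a coupling factor rather than a core subunit. They were kept where their names put them.

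The samples are CD69+ Treg sorted from thrombus, from the vein wall around it and from spleen, at day 14 after ligation of the inferior vena cava, a mouse model of deep vein thrombosis. All groups are DEREG mice on C57BL/6, which carry a Foxp3-driven transgene for a fusion of EGFP with the diphtheria toxin receptor, and all mice were ligated, so the spleen cells come from mice with thrombosis too. Live CD45+ CD4+ EGFP+ cells were sorted, so a cell counts as Treg here through the transgene's EGFP. Each tissue had 4 libraries. Age, sex and whether a library holds 1 mouse or several are not given in the labels, so a p-value here weighs a difference only against the scatter of these samples, part of which may be technical.

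Spleen libraries 3 and 4 and vein wall libraries 3 and 4 were far closer to each other than any other pair of their tissue, with a mean chi-square per gene of 3.95 and 2.56 against 96.8 to 355. The reads of each close pair were added up to make spleen 3-4 and vein wall 3-4, each 1 sample, which left 4 thrombus, 3 vein wall and 3 spleen samples. The files follow 3 column layouts, each with its own gene models, called sets here. Set 1 holds thrombus 1 and spleen 1, set 2 holds thrombus 2, vein wall 1 and spleen 2, and set 3 the other libraries. No vein wall sample is in set 1. Total exon reads ran from 9719151 to 55386086 a library, and the first principal component of all tested genes (23.4% of the variance) had an r2 of 0.902 with the set and 0.029 with tissue. The 8 markers of Treg and of the sort, Foxp3, Cd4 and Cd69 among them, had reads in all samples and summed to 4490 to 6150 CPM in thrombus, 4860 to 6660 in vein wall and 4450 to 6030 in spleen.

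To show what the start regions of these genes look like, the promoter of the most abundant member of each complex is given, with that of Ndufb4, whose level differed most between samples among complex I members. The sequences are RefSeq's for GRCm38.p6, from 250 bases before to 50 after the start of the transcript, in the direction of transcription. Capitals mark matches, on either strand, to the motifs of 3 factors known from mammals to act on respiratory chain genes: GCGCANGCG for NRF1, CCGGAAG for the ETS factor GABPA and AAGATGG for YY1. Overlapping matches run together.
Ndufa1, chrX:37191189-37191488, minus strand: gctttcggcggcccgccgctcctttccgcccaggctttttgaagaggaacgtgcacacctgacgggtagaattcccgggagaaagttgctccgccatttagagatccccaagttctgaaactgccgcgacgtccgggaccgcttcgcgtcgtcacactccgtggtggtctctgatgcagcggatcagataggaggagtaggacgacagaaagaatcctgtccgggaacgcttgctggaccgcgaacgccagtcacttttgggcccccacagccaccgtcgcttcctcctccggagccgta
Ndufb4, chr16:37654319-37654618, minus strand: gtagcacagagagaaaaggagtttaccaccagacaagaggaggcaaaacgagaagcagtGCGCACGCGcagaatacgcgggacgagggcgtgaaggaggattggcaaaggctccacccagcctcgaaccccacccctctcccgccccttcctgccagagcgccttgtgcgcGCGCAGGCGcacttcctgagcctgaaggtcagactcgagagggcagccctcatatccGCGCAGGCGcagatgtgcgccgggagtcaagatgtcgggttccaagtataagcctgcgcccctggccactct
Sdhb, chr4:140961021-140961320, plus strand: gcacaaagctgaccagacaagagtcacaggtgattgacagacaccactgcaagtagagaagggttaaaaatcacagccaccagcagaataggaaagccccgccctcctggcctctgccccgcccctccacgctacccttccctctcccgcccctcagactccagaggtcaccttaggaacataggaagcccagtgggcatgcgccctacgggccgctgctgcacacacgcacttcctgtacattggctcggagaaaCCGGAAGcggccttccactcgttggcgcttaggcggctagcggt
Uqcr11, chr10:80406772-80407071, minus strand: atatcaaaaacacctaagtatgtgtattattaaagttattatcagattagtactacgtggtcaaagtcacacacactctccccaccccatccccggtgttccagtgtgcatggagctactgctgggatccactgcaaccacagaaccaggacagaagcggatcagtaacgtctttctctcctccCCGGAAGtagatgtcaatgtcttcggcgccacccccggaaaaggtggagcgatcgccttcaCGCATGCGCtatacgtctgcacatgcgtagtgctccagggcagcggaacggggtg
Cox6a1, chr5:115348909-115349208, minus strand: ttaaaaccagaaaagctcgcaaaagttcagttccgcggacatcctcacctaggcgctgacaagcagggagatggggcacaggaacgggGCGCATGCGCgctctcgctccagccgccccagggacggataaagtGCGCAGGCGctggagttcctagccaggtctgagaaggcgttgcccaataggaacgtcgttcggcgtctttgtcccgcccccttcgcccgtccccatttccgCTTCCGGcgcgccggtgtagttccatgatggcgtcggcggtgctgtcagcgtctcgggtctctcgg
Atp5j, chr16:84834927-84835226, minus strand: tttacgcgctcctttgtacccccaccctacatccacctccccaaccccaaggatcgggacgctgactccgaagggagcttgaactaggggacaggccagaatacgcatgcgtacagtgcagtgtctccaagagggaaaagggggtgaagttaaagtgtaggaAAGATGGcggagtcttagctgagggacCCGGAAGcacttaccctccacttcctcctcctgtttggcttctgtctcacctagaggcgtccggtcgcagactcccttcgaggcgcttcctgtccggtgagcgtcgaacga

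The Cox6a1 and Uqcr11 promoters hold both an NRF1 and an ETS match, Ndufb4 holds NRF1 matches, Sdhb an ETS match, Atp5j an ETS and a YY1 match, and Ndufa1 none of the 3 in this window. RefSeq promoters were matched for 68 of the 81 members, with 73 promoters. The NRF1 motif was in 28.8% of these, against 13.3% of the promoters of all tested genes and 6.25% of all 32851 promoters in the table. The ETS motif was in 21.9%, against 17.9% of those of tested genes and 8.86% of all. The YY1 motif was in 15.1%, against 7.23% and 6.34%. A TATA box (TATAAA, either strand) was in 8 of the 73, against 7.41% and 13.6%. These are matches of letters, and binding was not measured.

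The subunit mRNAs were among the most abundant in these Treg. Per length, on the RPKM scale (reads scaled by exon length and library size), 65 of the 81 members averaged over 100 over the 12 libraries and 4 over 1000: Uqcr11 and Uqcr10, small subunits of complex III, with 1280 and 1150, Cox6a1, a nuclear subunit of complex IV, with 1250, and Ndufa1, a small membrane subunit of complex I, with 1230. Atp5j, the coupling factor 6 of ATP synthase, led complex V with 846, and Sdhb, the iron-sulfur subunit of succinate dehydrogenase, led complex II with 408. The median member stood at percentile 97.5 of the tested genes by mean RPKM. Members were short, with a median exon length of 1001 bases against 3316 for all 11712 tested genes, and held few intron reads, 1.51% of gene reads against 12.5%. RPKM rests on the exon length of each set's gene model, which differed up to 11.5-fold between sets (Ndufb2), so levels between tissues are given in CPM (reads scaled by library size, with TMM factors), which does not use length.

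The tests left out 4 genes for low counts, all of them isoforms known from other tissues. Cox7b2, a testis isoform, had 0 reads in all 12 libraries, which allows a level of up to 0.0388 to 0.317 CPM by sample (3 reads, counting error only). Cox8c, also of testis, had 2 reads in all, and Ndufa4l2, known as a hypoxia-induced relative of Ndufa4, had 4. Cox8b, the muscle and brown fat isoform of Cox8, had 103 reads, at 1.90 CPM in thrombus 3 and 2.12 CPM in vein wall 3-4 and none in the other 8 samples. The other 77 members passed the filter on low counts.

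Between tissues, none of the 77 tested members passed an adjusted p of 0.05 in any comparison (edgeR's quasi-likelihood test, Benjamini-Hochberg over 11712 genes). In thrombus against spleen, 0.145% of all tested genes were called. In vein wall against spleen, 0.111% were called. In thrombus against vein wall, 0.0% were called, so members and all genes alike gave 0. At an unadjusted p under 0.05 the members still gave 0 in each comparison, against 4.13%, 5.44% and 2.91% of all tested genes. With the set of files as a covariate, edgeR again called 0 members, against 0.453%, 0.41% and 0.0% of all genes, and 1, 1 and 3 members had an unadjusted p under 0.05, against 6.8%, 7.85% and 4.21% of all genes. With DESeq2 the members again gave 0 calls, against 0.897%, 1.02% and 0.0854% of all genes. At an unadjusted p under 0.05 DESeq2 gave 1, 1 and 0 members, against 5.3%, 7.18% and 4.62% of all genes. The median standard error of a member's log2 fold change was 0.36, 0.38 and 0.35 in the same order, which is the error against which the changes of single genes below are to be read.

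The level of nearly the whole group varied from sample to sample. The 81 members summed to 17858.8, 38818.7, 34152.6 and 29626.8 CPM in thrombus 1 to 4. They summed to 31821.7, 44156.7 and 38500.1 CPM in vein wall 1, 2 and 3-4, and to 20630.4, 30135.4 and 31971.0 CPM in spleen 1, 2 and 3-4. The lowest values were those of thrombus 1 and spleen 1, both in set 1, and the highest was vein wall 2, and thrombus overlapped both other tissues. In log2 CPM, relative to each gene's mean over the 10 samples, the median member lay at -0.89 in thrombus 1, 0.38 in thrombus 2, 0.07 in thrombus 3 and -0.04 in thrombus 4. It lay at 0.04, 0.60 and 0.37 in vein wall 1, 2 and 3-4, and at -0.57, 0.02 and 0.07 in spleen 1, 2 and 3-4. In bulk RNA, fewer cells of a kind and less of an mRNA per cell cannot be told apart.

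**Figure D1:**
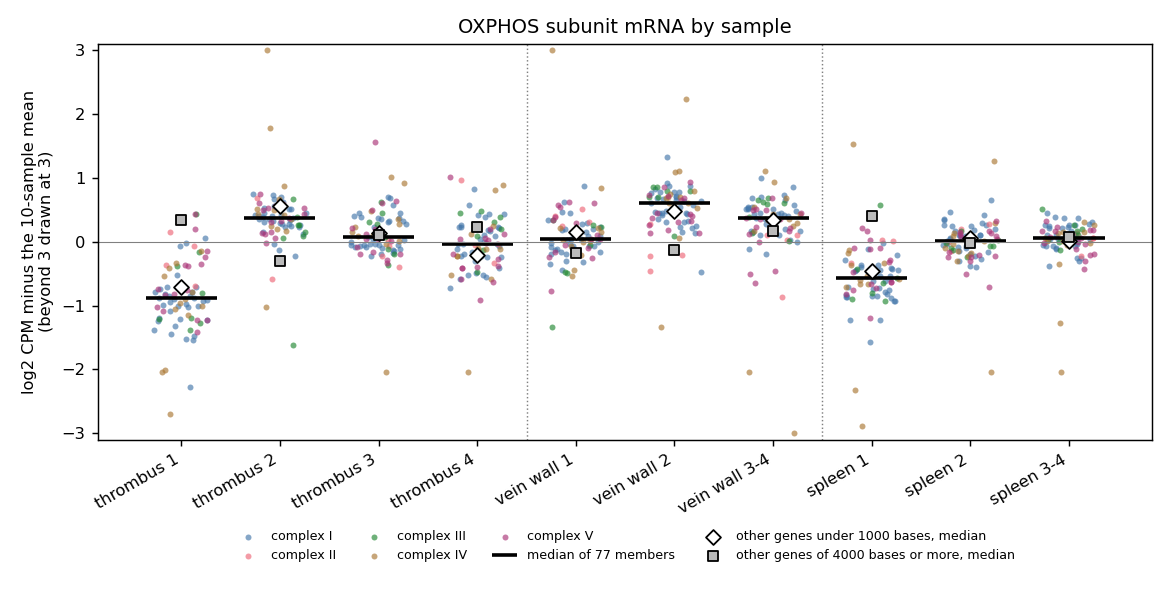
Each point is 1 of 77 subunit genes, coloured by complex, as log2 CPM minus the gene's mean over the 10 samples, by sample. Black bars are member medians, from -0.89 in thrombus 1 to 0.60 in vein wall 2, and the diamonds and squares are medians of other genes with short and long exons: the diamonds follow the bars and the squares do not.

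Other short genes varied in a like way. The 515 tested non-members with under 1000 bases of exon had a median of -0.71, 0.56, 0.14 and -0.20 in thrombus 1 to 4. Their median was 0.15, 0.48 and 0.34 in the vein wall samples and -0.46, 0.06 and 0.01 in the spleen samples. The 4532 non-members of 4000 bases or more went the other way in set 1, at 0.34 in thrombus 1 and 0.41 in spleen 1. Members were below 0 in thrombus 1 at each length: -0.97 for the 38 under 1000 bases, -0.69 for the 27 of 1000 to 2000 and -0.73 for the 10 of 2000 to 4000, where other genes stood at -0.71, -0.21 and 0.27. An added fit, chosen after the data were seen, measured how much of the differences between tissues remained once each sample's trend on exon length, drawn from non-members, was removed.

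In vein wall against spleen, 74 of the 77 members had a log2 fold change above 0, against 49.0% of all tested genes. The median was 0.49 (quartiles 0.31 and 0.64), against -0.02 over all genes. By complex the median was 0.52 for complex I, 0.13 for complex II, 0.52 for complex III, 0.64 for complex IV and 0.41 for complex V. In 15 of the 77 (19.5%) every vein wall sample was above every spleen sample, against 6.76% of all tested genes and 18.1% of the 515 short non-members, and no member was lower in that way (6.5% of all tested genes). Those short non-members had a median of 0.47, with 80.2% above 0. Markers of some other cells differed between these tissues too. The 6 B and plasma cell markers summed to 371 to 1320 CPM in vein wall and 160 to 289 CPM in spleen, and the 8 dendritic cell markers to 2290 to 11900 and 1160 to 2270 CPM. The 6 fibroblast markers summed to 10.3 to 59.7 CPM in vein wall and 0 to 0.453 CPM in spleen, and the 5 adipocyte markers, mostly Fabp4, to 9.5 to 16.1 and 0 to 1.54 CPM. The 5 erythroid markers went the other way, with 1.52 to 19.4 CPM in vein wall and 45.7 to 985 CPM in spleen. None of these sums overlapped between vein wall and spleen, though the dendritic sums nearly touched. The sums of the other marker lists did overlap: macrophage, neutrophil, platelet, endothelial, smooth muscle, CD8 T and NK cell, acinar pancreas, and striated and heart muscle. The dendritic sums were mostly Cd74, H2-Ab1 and H2-Aa, while Zbtb46 of the dendritic list was lower in vein wall (0.0997 to 4.13 CPM) than in spleen (4.6 to 12.3 CPM). The part of other cells in the members' values was not tested.

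The vein wall median depended on the fit. With the set of files as a covariate it was 0.22, with 66 members above 0 against 49.0% of all genes, and within single sets the difference was 0.08 in set 2, with 45 members above 0 (47.9% of all genes), and 0.39 in set 3, with 67 above 0 (46.4% of all genes). With the exon-length trend removed it was 0.13, with 52 above 0, and with both it was 0.00, with 38 of 77 above 0. Without spleen 1 it was 0.32, without set 1 0.31, with plain read totals 0.31 and without set 2 0.77. No member was called in any of these fits, against 0.0681% to 0.453% of all genes.

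In thrombus against spleen, 57 of 77 members were above 0, against 52.1% of all tested genes, with a median of 0.12 against 0.03. The median by complex lay between 0.10 and 0.17. No member's thrombus samples were all above or all below the spleen samples, against 2.48% of all tested genes in each direction. The sets went different ways: the median difference was -0.31 in set 1, with 11 members above 0 (49.3% of all genes), 0.38 in set 2, with 68 above 0 (48.8%), and -0.01 in set 3, with 35 above 0 (45.7%). The median was 0.30 without thrombus 1, -0.04 without thrombus 2 and -0.03 without spleen 1, and 0.01 with the set as a covariate, where 40 members were above 0 (49.2% of all genes).

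In thrombus against vein wall, 72 of 77 members were below 0, against 47.8% of all tested genes, with a median of -0.37 against 0.04. All 36 tested members of complex I and all 8 of complex III were below 0, and complex II had a median of -0.04. A single member, Ndufb5, a membrane subunit of complex I, was lower in all thrombus samples than in all vein wall samples (1.30% of members, against 1.48% of all tested genes), and none was higher (2.36%). The direction was not shared by the sets, with a median difference of 0.36 in set 2, with 64 above 0 (48.2% of all genes), and -0.38 in set 3, with 8 above 0 (51.0%). The median was -0.20 with the set as a covariate, where 64 were below 0 (49.5% of all genes). It was -0.06 with the length trend removed, -0.15 without thrombus 1, -0.21 without vein wall 2 and -0.66 without set 2. The 3 comparisons share samples, so their medians are not independent of each other.

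**Figure D2:**
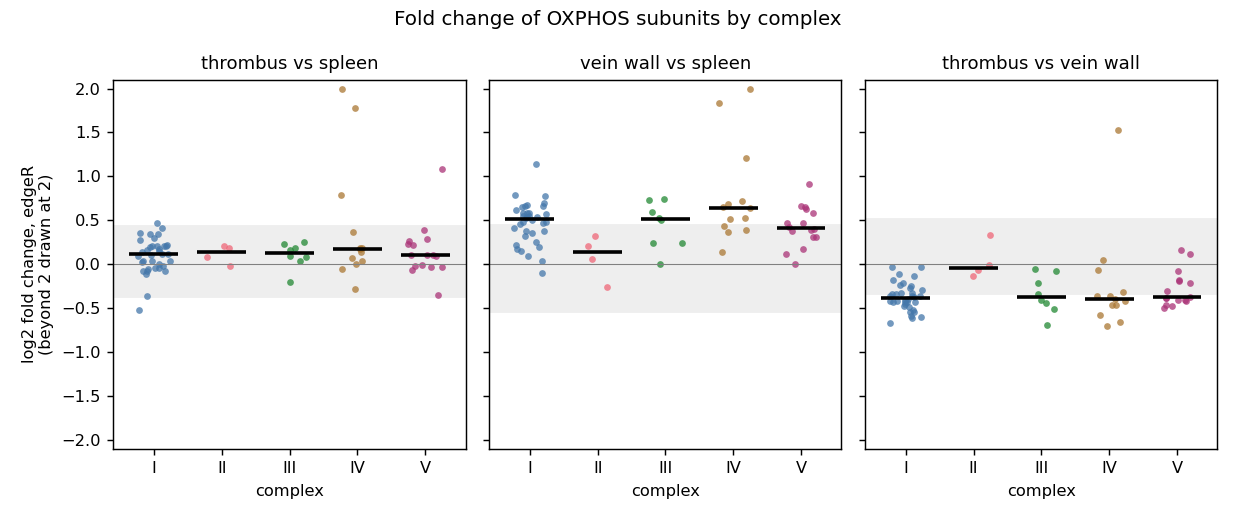
Log2 fold change of each tested subunit by complex, with a black bar at the median of the complex and the quartiles of all tested genes in grey. Complexes I, III, IV and V have medians of 0.41 to 0.64 in vein wall against spleen, and complex II 0.13.

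**Figure D3:**
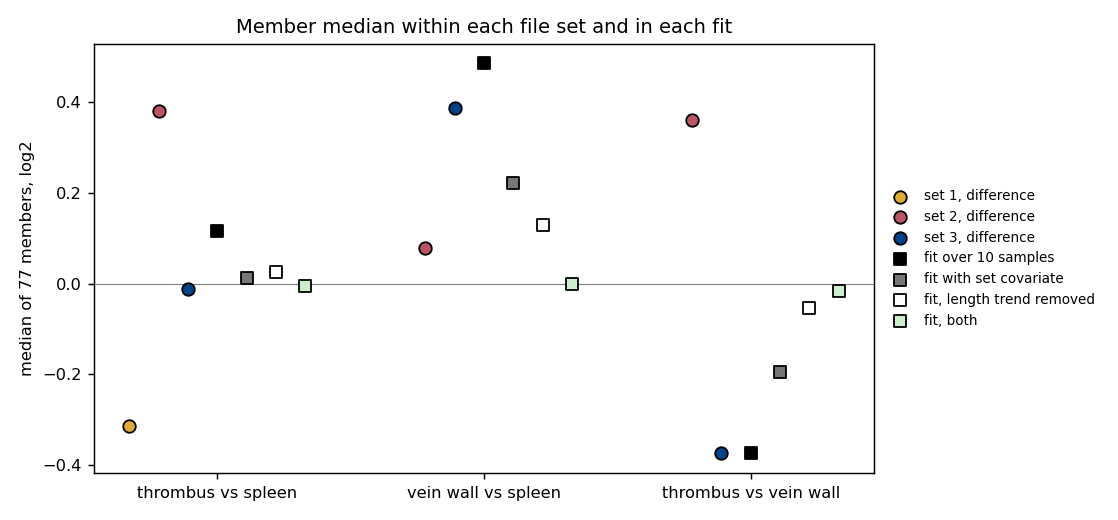
Median over 77 members within each set of files (circles, difference of mean log2 CPM) and in 4 fits over the 10 samples (squares, log2 fold change), by comparison. In thrombus against spleen and in thrombus against vein wall the sets lie on both sides of 0. The fit with the set as a covariate and the length trend removed lies near 0 in each comparison.

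Among complex I members, Ndufb4, an accessory subunit of the membrane arm, had the highest fold change in vein wall against spleen and in thrombus against spleen. It had 42.0, 249, 333 and 306 CPM in thrombus 1 to 4, 190, 512 and 410 CPM in the vein wall samples, and 68.6, 157 and 279 CPM in the spleen samples. Both set 1 samples were far below the rest, and each tissue overlapped the others. The log2 fold change was 1.14 ± 0.69 (SE, adjusted p = 0.960, edgeR) for vein wall and 0.47 ± 0.64 (adjusted p = 1.0, edgeR) for thrombus, both against spleen, and 0.39 ± 0.31 and 0.05 ± 0.27 with the set as a covariate. Only 30.2%, 18.2% and 12.9% of its reads in sets 1, 2 and 3 matched once, so its count depends on reads shared with other copies.

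Ndufs1, the largest iron-sulfur subunit of complex I and part of its NADH-oxidising matrix arm, was the lowest complex I member in both comparisons with spleen. It had 102, 88.6, 93.2 and 69.0 CPM in thrombus, 189, 74.5 and 90.1 CPM in vein wall and 96.1, 163 and 120 CPM in spleen. All tissues overlapped, and the log2 fold change was -0.52 ± 0.38 for thrombus and -0.10 ± 0.40 for vein wall, both against spleen (adjusted p = 1.0 and 0.993, edgeR). Ndufa9, an accessory subunit of that arm, stood nearest to 0 of its complex in thrombus against vein wall, at -0.03 ± 0.34. Ndufa1 had 236, 734, 696 and 647 CPM in thrombus, 491, 898 and 806 CPM in vein wall and 306, 541 and 654 CPM in spleen, again with the set 1 samples lowest.

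Complex II is also an enzyme of the citric acid cycle, and its 4 genes varied in different ways from sample to sample. Sdha, the flavoprotein that oxidises succinate, had 262, 158, 202 and 459 CPM in thrombus, 311, 203 and 129 CPM in vein wall and 237, 271 and 258 CPM in spleen. Thrombus 4 was the highest and vein wall 3-4 the lowest, and set 1 was in the middle. Its log2 fold change was -0.25 ± 0.41 for vein wall against spleen, the lowest of the 77, and 0.33 ± 0.39 for thrombus against vein wall. Sdhb had 342, 846, 558 and 539 CPM in thrombus, 653, 665 and 559 CPM in vein wall and 381, 547 and 576 CPM in spleen, with set 1 lowest as for the other complexes. The membrane anchors Sdhc and Sdhd had log2 fold changes between -0.07 and 0.21 in the 3 comparisons. The median complex II deviation was -0.22 in thrombus 1, where the other 4 complexes lay between -0.998 and -0.748; whether complex II differs from them was not tested.

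In complex III, Uqcrq, the ubiquinone-binding small subunit, had 173, 481, 484 and 457 CPM in thrombus, 723 and 626 CPM in vein wall 2 and 3-4 with 355 CPM in vein wall 1, and 229, 340 and 451 CPM in spleen. Vein wall 2 and 3-4 exceeded all spleen samples and vein wall 1 did not, and the log2 fold change of 0.74 ± 0.41 against spleen missed the threshold (adjusted p = 0.928, edgeR). Uqcrb, which also lies at the ubiquinone site, had 229, 835, 482 and 374 CPM in thrombus, 627, 904 and 795 CPM in vein wall and 351, 532 and 524 CPM in spleen. Each vein wall sample was above each spleen sample, at 0.73 ± 0.40 (adjusted p = 0.928, edgeR), and thrombus spanned both, at -0.69 ± 0.37 against vein wall. Only 44.11% to 44.36% of Uqcrb reads matched once, by set.

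Uqcrfs1, the Rieske iron-sulfur protein, did not follow its complex. It had 147, 35.3, 114 and 148 CPM in thrombus, 42.6, 175 and 166 CPM in vein wall and 161, 107 and 116 CPM in spleen. Its lowest values were those of thrombus 2 and vein wall 1, both of set 2, while the set 1 samples were among the highest. Its log2 fold change was 0.00 ± 0.53 for vein wall and -0.21 ± 0.49 for thrombus, both against spleen, and all of its reads matched once in each set. Uqcr10 and Uqcr11, the most abundant per length, had 584 and 604 CPM in thrombus 2, but 227 and 224 CPM in thrombus 1, and Uqcr10 had the highest fold change of the complex in thrombus against spleen, at 0.25 ± 0.42. Uqcrc1, a large core subunit, had the fold change nearest to 0 in thrombus against vein wall (-0.06 ± 0.30).

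In complex IV, the ubiquitous isoforms carried nearly all of the mRNA. Cox6a1 had 397, 923, 994 and 716 CPM in thrombus, 785, 1300 and 1050 CPM in vein wall and 491, 698 and 811 CPM in spleen. Vein wall overlapped spleen only at vein wall 1 against spleen 3-4, and the log2 fold change was 0.65 ± 0.37 (adjusted p = 0.934, edgeR). Cox6b1, Cox7a2 and Cox8a, at 203 to 968 CPM in all samples, had log2 fold changes of 0.43 to 0.53 for vein wall against spleen and 0.04 to 0.17 for thrombus against spleen. Every vein wall sample was above every spleen sample for Cox7a2 and Cox8a. Ndufa4 followed the same course, with 309, 845, 646 and 570 CPM in thrombus, 658, 998 and 823 CPM in vein wall and 426, 601 and 592 CPM in spleen. Cox7a2l, the supercomplex factor, had the lowest fold change of the complex in vein wall against spleen, at 0.14 ± 0.34.

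Cox7c, a small membrane subunit named here after its values were seen, had the lowest adjusted p of all members with the set as a covariate. It had 87.9, 451, 669 and 620 CPM in thrombus, 397, 757 and 678 CPM in vein wall and 70.0, 286 and 438 CPM in spleen. Within each set its thrombus and vein wall values were above those of spleen. In that fit its log2 fold change was 0.51 ± 0.20 for thrombus and 0.58 ± 0.23 for vein wall, both against spleen, which missed the threshold (adjusted p = 0.591 and 0.523, edgeR). Its reads matched once in 20.3%, 2.67% and 4.80% of cases in sets 1, 2 and 3, so most of them are shared with other copies.

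Cox5a, a subunit on the matrix side of the enzyme, was the lowest of its complex in thrombus against spleen. It had 243, 133, 300 and 247 CPM in thrombus, 185, 470 and 434 CPM in vein wall and 247, 297 and 299 CPM in spleen. Thrombus 2 and vein wall 1, both of set 2, were the lowest samples, and the log2 fold change was -0.28 ± 0.36 for thrombus against spleen and -0.65 ± 0.36 for thrombus against vein wall (adjusted p = 1.0 for both, edgeR). The direction in thrombus against vein wall was the same in set 2 (-0.48) and set 3 (-0.73).

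The muscle and testis isoforms were near 0 with 1 exception in 2 samples. Cox6a2, the isoform of heart and skeletal muscle, had 0, 44.1, 0 and 0 CPM in thrombus 1 to 4. It had 11.5, 0.0537 and 0 CPM in vein wall 1, 2 and 3-4, and 0.911, 0 and 0 CPM in spleen 1, 2 and 3-4. Its reads were thus almost all from thrombus 2 and vein wall 1, both of set 2, where all of its reads matched once, and spleen 2 of the same set had none. Its fitted log2 fold changes, 5.26 ± 3.86 for thrombus and 3.73 ± 3.67 for vein wall against spleen, rest on those samples and passed no threshold (adjusted p = 1.0 and 0.963, edgeR).

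The same samples held more mRNA of other cell types. The 8 dendritic cell markers summed to 10900 CPM in thrombus 2 and 11900 CPM in vein wall 1, mostly Cd74, H2-Ab1 and H2-Aa, which B cells share, against 1160 to 2920 CPM in the other 8 samples. By tissue, that sum ran from 1620 to 10900 CPM in thrombus, 2290 to 11900 in vein wall and 1160 to 2270 in spleen. Foxp3 was lowest in these samples, at 275 CPM in thrombus 2 and 354 CPM in vein wall 1, against 371 to 705 CPM in the others. Ikzf2 was lowest there too, at 285 and 346 CPM, but Cd69 was highest there, at 817 and 877 CPM. The 8 Treg and sort markers summed to 5210 CPM in thrombus 2 and 6660 CPM in vein wall 1, against 4450 to 6150 CPM elsewhere. For the rest of the dendritic list, in thrombus 2 and vein wall 1, Itgax had 5.03 and 0 CPM and Flt3 7.37 and 3.99 CPM. Xcr1 had 0 and 0.76 CPM, Clec9a 4.30 and 0 CPM, and Zbtb46 1.06 and 2.91 CPM. Flt3 and Clec9a were highest of all samples in thrombus 2, while Itgax, Xcr1 and Zbtb46 were highest in samples other than these. Siglech, a marker of plasmacytoid dendritic cells chosen after its values were seen, had 75.9 CPM in thrombus 2 and 12.7 CPM in vein wall 1 and at most 0.211 CPM in the other samples. The 6 B and plasma cell markers, mostly Cd79a and Cd79b in these samples, summed to 978 CPM in thrombus 2 and 1320 CPM in vein wall 1, against 160 to 463 CPM elsewhere. The 5 erythroid markers, nearly all of it Hba-a1 and Hbb-bs, summed to 1460 CPM in thrombus 2 but 1.52 CPM in vein wall 1, with 593 CPM in thrombus 4 and 985 CPM in spleen 1, where Cox6a2 was at 0 and 0.911 CPM. The 8 macrophage markers summed to 1740 CPM in thrombus 2 and 266 CPM in vein wall 1, against 22.3 to 199 CPM elsewhere. These sums were mostly Lyz2, at 1350 and 237 CPM. In vein wall 1 Cd68 had 21.5 CPM, while Csf1r, Adgre1, Fcgr1 and Cd14 were at 0 to 0.253 CPM. The 5 markers of striated and heart muscle summed to at most 5.26 CPM in any sample, with Mb at 0 reads. The part of these cells in the Cox6a2 values was not tested.

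Cox6b2, a testis isoform, had 0.0649, 3.24, 0.951 and 0.741 CPM in thrombus, 1.65, 4.45 and 0.0249 CPM in vein wall and 0.771, 2.25 and 0.893 CPM in spleen. The tissues overlapped, and its log2 fold change in thrombus against vein wall, -0.70 ± 1.74, had an error above its size. Cox7a1, the muscle and brown fat isoform, had 0.779, 2.01, 2.22 and 2.04 CPM in thrombus, 0.76, 2.36 and 2.39 CPM in vein wall and 0.0701, 1.07 and 0.388 CPM in spleen. The higher Cox7a1 values outside spleen overlapped it, at 1.78 ± 1.68 for thrombus and 1.84 ± 1.75 for vein wall (adjusted p = 1.0 and 0.962, edgeR).

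**Figure D4:**
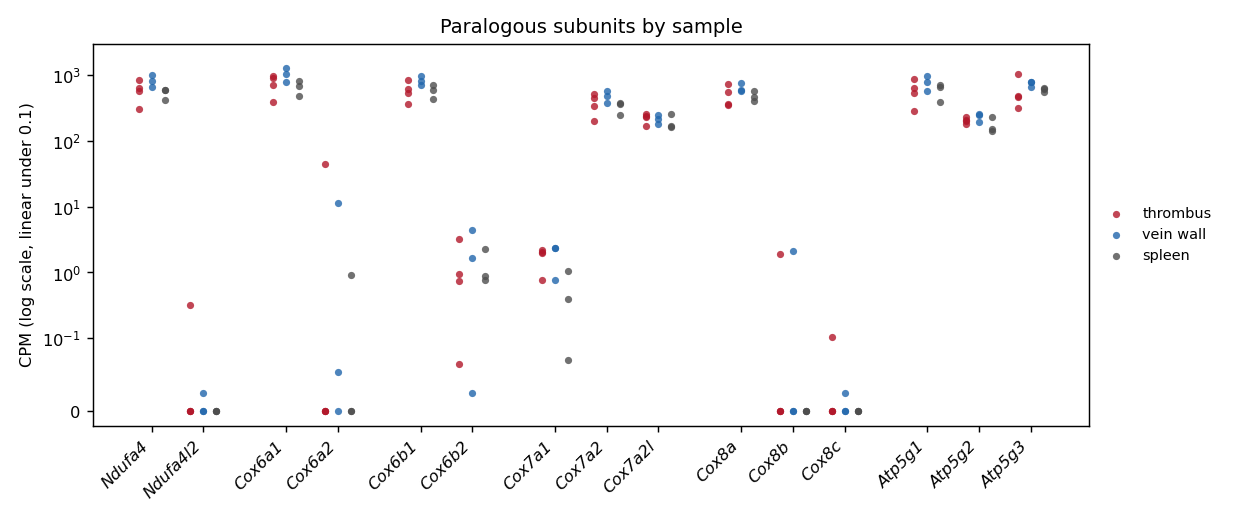
CPM of paralogous subunits by sample on a log scale that is linear under 0.1, with thrombus, vein wall and spleen samples side by side. Ndufa4, Cox6a1, Cox6b1, Cox7a2, Cox7a2l, Cox8a and the 3 Atp5g genes lie above 100 in every sample, and Cox6a2 reaches 44.1 in thrombus 2 and 11.5 in vein wall 1 while most samples are at or near 0.

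In complex V, Atp5k, the e subunit that helps pair ATP synthase into dimers, had the highest fold change in each comparison. It had 94.7, 203, 747 and 507 CPM in thrombus, 148, 482 and 407 CPM in vein wall and 110, 154 and 285 CPM in spleen. Samples of set 3 were above those of sets 1 and 2 in each tissue, and the fold changes were 1.08 ± 0.66 for thrombus and 0.92 ± 0.69 for vein wall against spleen (adjusted p = 1.0 and 0.962, edgeR). Within set 3 the differences were 1.11 and 0.63, within set 2 0.40 and -0.06, and within set 1, which holds no vein wall sample, -0.22 for thrombus. Its gene models are short and unequal, with 616, 292 and 371 bases of exon in sets 1, 2 and 3.

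Atp5a1, the catalytic-head alpha subunit, showed no common course, with 947, 766, 657 and 610 CPM in thrombus, 852, 771 and 445 CPM in vein wall and 782, 591 and 696 CPM in spleen. Its highest value was in thrombus 1, the sample in which most other members were lowest, and its log2 fold change for vein wall against spleen was 0.00 ± 0.33. Atp5f1, the b subunit of the stalk, had 430, 772, 451 and 356 CPM in thrombus, 796, 689 and 645 CPM in vein wall and 439, 616 and 482 CPM in spleen. Each vein wall sample was above each spleen sample, at 0.47 ± 0.34, and thrombus spanned both, at -0.50 ± 0.31 against vein wall (adjusted p = 0.962 and 1.0, edgeR). With the set as a covariate these were 0.47 ± 0.24 and -0.49 ± 0.21.

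The c subunit that forms the rotor ring is encoded by Atp5g1, Atp5g2 and Atp5g3, whose mature proteins are alike. Atp5g1 had 287 to 878 CPM in thrombus, 569 to 983 in vein wall and 394 to 717 in spleen, and Atp5g3 had 324 to 1030, 666 to 803 and 563 to 632 CPM. Atp5g2, lower at 142 to 260 CPM, had 183, 201, 210 and 233 CPM in thrombus, 195, 251 and 260 CPM in vein wall and 235, 142 and 151 CPM in spleen. Its highest thrombus and vein wall values were in set 3 and its highest spleen value in set 1. In set 1 only 24.58% of Atp5g1 reads and 2.72% of Atp5g2 reads matched once, against 92.45% to 99.75% in sets 2 and 3. Their set 1 values thus rest mostly on shared reads. The log2 fold changes of the 3 lay between 0.31 and 0.42 for vein wall against spleen and between -0.07 and 0.23 for thrombus against spleen. Atp5s was the lowest of the complex in thrombus against spleen, at 28.3 ± 7.53 CPM in thrombus and 36.1 ± 5.23 CPM in spleen (SD, n = 4 and 3; -0.35 ± 0.47).

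The 13 subunits encoded by mitochondrial DNA were listed with exons in sets 1 and 3. Over these 9 libraries they took 2.72% to 3.54% of all exon reads, and the 81 nuclear genes 1.93% to 3.92%. Vein wall 2 had the highest nuclear share, 3.92%, and the lowest mitochondrial one, 2.72%. Thrombus 1 had the lowest nuclear share, 1.93%, beside a mitochondrial share of 2.90%, and spleen 1 had 2.27% beside 3.37%. The lower nuclear shares of set 1 thus had no counterpart of like size in the mitochondrial genes, while only 37.3% of mitochondrial reads matched once in set 1 against 91.5% to 92.9% in set 3.

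**Figure D5:**
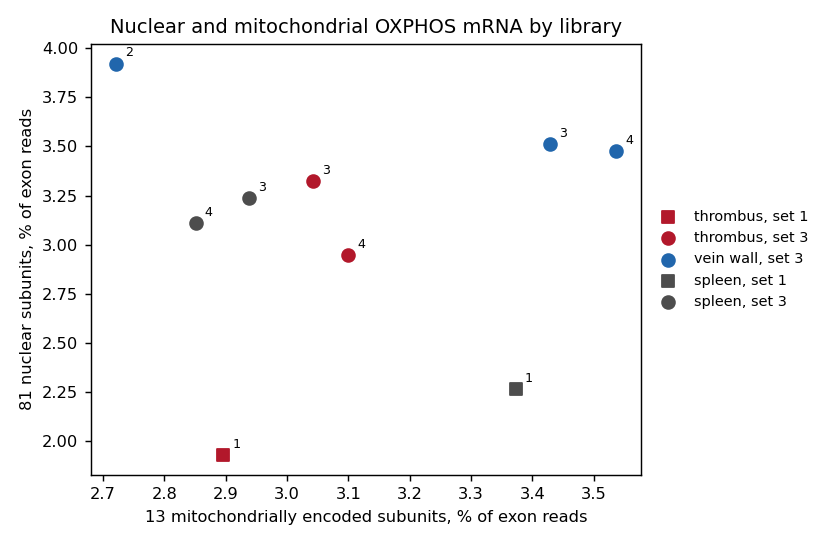
Share of exon reads in 81 nuclear subunit genes against the share in 13 mitochondrially encoded ones, for 9 libraries of sets 1 and 3, labelled by library number. Both set 1 libraries lie at the bottom, at 1.93% and 2.27% nuclear, with mitochondrial shares of 2.90% and 3.37%.

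Other genes of mitochondrial respiration were counted from 5 lists. None of their genes was called in any comparison, with or without the set as a covariate, against 0.0% to 0.453% of all tested genes. The 7 tested subunits and partners that the name rule misses, such as Cox4i1, the largest nuclear subunit of complex IV, had medians of 0.39 for vein wall and 0.11 for thrombus against spleen. Cox4i1 had 718 ± 290 CPM in thrombus (SD, n = 4), 877 ± 45.1 in vein wall and 668 ± 121 in spleen (n = 3 each). The 51 tested assembly factors had medians of 0.14 and -0.07, the 17 citric acid cycle genes 0.14 and 0.06, and the 22 genes of transport, dynamics and antioxidant defence 0.12 and -0.04.

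The 18 tested regulators of mitochondrial biogenesis had a median of 0.28 for vein wall and -0.04 for thrombus, both against spleen. Ppargc1a, the best-known coactivator of this group, was at 0 to 0.317 CPM and stayed out of the tests. Polg2, the accessory subunit of the mitochondrial DNA polymerase, had the lowest p of the lists, with 2.48 ± 0.63 for vein wall and 2.04 ± 0.59 for thrombus against spleen, and passed no threshold (adjusted p = 0.304 and 0.554, edgeR; picked here for its p).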

How the data were processed

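RNA from sorted Treg (2 ng) was amplified with SmartSeq v4 (12 cycles), and Nextera XT libraries were made from 1 ng of the cDNA, per the labels' protocols. These libraries keep no strand and have no molecular identifiers, so reads of a gene and its antisense partner cannot be told apart. The values used are the total exon read counts per gene deposited by the authors. The genome was GRCm38, per the submitters' processing notes, while the sources used here name no aligner or counter. Genes of the 3 file layouts were joined by Ensembl identifier and by name, with RefSeq synonyms for 247. The joined genes held 92.28% to 96.33% of each library's exon reads. RPKM was computed here from those counts and exon lengths.

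Counts were tested with edgeR 4.0.16 (TMM, filterByExpr, robust quasi-likelihood fit, R 4.3.3) on all tested genes and 10 samples of 3 tissues in 1 fit, with Benjamini-Hochberg adjustment at 0.05. Log2 CPM used a prior count of 2. Libraries of a tissue with a mean chi-square under 10 were summed. DESeq2 1.42.0 was an alternative, beside other scalings, no filter, reads that match once, the set of files as a covariate and leaving out samples. The exon-length fit used a lowess curve (span 0.3) per sample. The scripts were tested on simulated data.

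The genes named are, in each complex and comparison, those of highest and lowest fold change, the most abundant per length, those under the filter and the isoform groups. The members, lists and rules were chosen with earlier results of these data known.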

Additional observations from a re-analysis of the deposited data

Results flagged for a closer look

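Among 38 sets of 4 thrombus values, 6 held a sample far from the other 3, by the gap to its nearest neighbour as a share of the whole range, both taken on log2 CPM, past a limit (Dixon's) that chance passes in about 1 of 20. Thrombus 1, of set 1, was the low sample in 5 of them. Ndufb4 had 42.0 CPM there (gap 0.859 of the log2 range), Uqcrq 173 CPM (0.944), Ndufa1 236 CPM (0.889) and Cox7a1 0.779 CPM (0.903). The mean log2 CPM of complex III was 7.84 there (0.858). Cox6a2 stood out in thrombus 2, with 44.1 CPM and a gap of 1.0 of the log2 range, the other thrombus samples being at 0.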

How the results depend on the processing

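No member was called in any of 25 alternatives, by edgeR or DESeq2, where 0.0% to 1.02% of all genes were called. At an unadjusted p under 0.05, the members' share was at or below that of all genes in most alternatives, but not in all. Leaving out set 2 gave 12 of 77 members (15.6%) in vein wall against spleen, where 6.11% of all genes passed. It gave 19 (24.7%) in thrombus against vein wall, where 6.54% did. In vein wall against spleen the share was also 11.7% without thrombus 1 (5.66% of all genes) and 13.8% without the low-count filter (6.64%). It was 7.69% without vein wall 1 (5.75%). In thrombus against vein wall it was 18.4% without thrombus 2 (7.66%) and 5.0% without the low-count filter (4.88%). With set 3 alone the share was also above that of all genes in these comparisons. No count is given for that fit, since it holds 1 spleen sample. Its medians were 0.472 in vein wall against spleen and -0.373 in thrombus against vein wall. A median of the members counted as moved past the spread between samples, an SD of 0.412 log2. In vein wall against spleen 1 alternative passed it, to 0.0 with the exon-length trend removed and the set as a covariate. That fit was chosen after the data were seen, like the fits without a set. In size, the limit is above the main medians of thrombus against spleen (0.116) and thrombus against vein wall (-0.373). A fall to 0 there could thus not count as moved. The same fit gave -0.016 in thrombus against vein wall. Leaving out each sample in turn gave medians of -0.044 to 0.302 in thrombus against spleen, 0.316 to 0.638 in vein wall against spleen and -0.534 to -0.15 in thrombus against vein wall. Of 2379 values of 32 named members, 275 changed sign and none was called.

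The labels number the libraries of each tissue alike. Deviations of same-numbered libraries of different tissues correlated at -0.072 to 0.402, and those of differently numbered ones at -0.294 to 0.368. The highest value of either kind was between libraries of the same set. This check therefore cannot tell pairs from sets, and the main fit did not take the numbers as pairs. With the replicate block over 12 libraries, 0.0 members were called in each comparison. Of all genes, 0.452% were called in thrombus against spleen, 0.565% in vein wall against spleen and 0.0% in thrombus against vein wall. The member medians were 0.038, 0.442 and -0.445 in the same order. At an unadjusted p under 0.05 that fit gave 0, 36 and 32 of 76 members (0.0%, 47.4% and 42.1%), against 7.49%, 14.3% and 7.77% of all genes, with a lowest adjusted p of 0.0833 (edgeR). The same 12 libraries without the block gave 0, 8 and 5 of 76 members (0.0%, 10.5% and 6.58%), against 6.55%, 12.0% and 6.59% of all genes. Both fits count each library of the near-identical pairs, spleen 3 and 4 and vein wall 3 and 4, as separate. Their n is thus above the number of distinct samples, and their p-values are too small.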
